A study of Mus musculus with 20 samples.

Results

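The 10 genes described here code for the enzymes that build fatty acids and then lengthen or desaturate them: Acly, Acaca, Fasn, Elovl6, Elovl1, Elovl7, Scd1, Scd2, Fads2 and Fads1. They were chosen by name from the pathway, with earlier results of these data known. Each matched exactly 1 of the 46517 genes in the deposited table by its Ensembl identifier with the version number removed. Their transcripts were measured in bulk RNA-seq of mouse optic nerve and corpus callosum, 2 white matter tracts, from mice labelled as Zdhhc9 knockouts and from wild-type mice. Zdhhc9 is an X-linked gene for a palmitoyltransferase, an enzyme that attaches fatty acid chains to proteins, and the study asked about its part in oligodendrocyte maturation and myelin formation. There were 5 knockout and 4 wild-type optic nerve libraries (KO_ON and WT_ON) and 6 knockout and 5 wild-type corpus callosum libraries (KO_CCg and WT_CCg). The sample labels call the mutant a knockout while the series' design text calls it a knockdown, and strain, sex, age and the type of allele are not stated in the sources at hand. Callosum pieces were cut from frozen coronal brain sections and optic nerves were dissected directly, so each library holds RNA of every cell type in the piece. The labels do not say whether each library is 1 animal, so p-values measure the spread between these libraries.

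Acly splits citrate into cytosolic acetyl-CoA, Acaca carboxylates that to malonyl-CoA, and Fasn joins these units into palmitate. Elovl6 lengthens palmitate to stearate, Elovl1 makes very-long-chain saturated fatty acids that enter sphingolipids, and Elovl7 is another elongase of saturated chains. Scd1 and Scd2 place the double bond that turns stearate into oleate, and Fads2 and Fads1 desaturate dietary polyunsaturated precursors on the way to arachidonic acid. Myelin is a lipid-rich membrane, and oligodendrocytes that make it run this pathway at a high rate. The transcription factor Srebf1 is a known activator of many of these genes in liver.

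The 10 genes lie on 5 mouse chromosomes in the GRCm38 build (GENCODE M21 annotation, all protein coding), with 3 on chromosome 11 and 4 on chromosome 19. On the plus strand, Acaca (ENSMUSG00000020532) spans chr11:84129672-84401651, and on the minus strand, Acly (ENSMUSG00000020917) spans chr11:100476353-100528000 and Fasn (ENSMUSG00000025153) spans chr11:120805846-120824547. Elovl6 (ENSMUSG00000041220) lies at chr3:129532355-129638495, Elovl1 (ENSMUSG00000006390) at chr4:118428093-118432953 and Elovl7 (ENSMUSG00000021696) at chr13:108214404-108285683, all on the plus strand. Scd2 (ENSMUSG00000025203, plus strand, chr19:44293674-44306864) and Scd1 (ENSMUSG00000037071, minus strand, chr19:44394455-44407879) lie close together and are paralogs, so the split of reads between them depends on the authors' quantifier and their separate values are less certain than their sum. Fads2 (ENSMUSG00000024665, minus strand, chr19:10062765-10101746) and Fads1 (ENSMUSG00000010663, plus strand, chr19:10182888-10196877) lie near each other on the same chromosome.

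Promoter windows of RefSeq (GRCm38.p6), the 250 bases before an annotated start, were found for 7 of the 10 genes, with 2 windows for Elovl1. Scd1, Scd2 and Fads1 had none. The Acaca window (chr11:84195188-84195437) and 1 Elovl1 window (chr4:118429451-118429700) lie inside the GENCODE spans of those genes, so they do not precede the outermost start. The windows were searched on both strands for CCAAT (the NF-Y box), GGGCGG (the core of the GC box bound by Sp1), CACGTG (an E-box) and TCACNCCAC (a sterol regulatory element). Of the 8 windows, 2 held CCAAT and 5 held GGGCGG, against 33.8% and 32.7% of all 32851 windows of this length. CACGTG was found in 0 of the 8 windows and in 6.02% of all windows, and TCACNCCAC in 0 of the 8 and in 1.05% of all windows. Matches are descriptions of letters only, and those for different motifs can overlap, as 1 did in Elovl1. The windows of Fasn and Acly are shown because each was among the 2 nearest profiles of the other across the callosum libraries. That of Fads2 is shown because its level differed between the tracts. Each reads 5′ to 3′ on the gene's own strand, with matches on either strand in capitals. Fasn has 3 CCAAT matches, read as ATTGG on the other strand, of which a pair shares the run CCAATTGG. Acly has 4 GGGCGG matches, read as CCGCCC on the other strand, and Fads2 has 1. The windows are chr11:120824548-120824797 (Fasn), chr11:100528001-100528250 (Acly) and chr19:10101504-10101753 (Fads2), all on the minus strand, and most of the Fads2 window lies inside the GENCODE span of that gene.
Fasn: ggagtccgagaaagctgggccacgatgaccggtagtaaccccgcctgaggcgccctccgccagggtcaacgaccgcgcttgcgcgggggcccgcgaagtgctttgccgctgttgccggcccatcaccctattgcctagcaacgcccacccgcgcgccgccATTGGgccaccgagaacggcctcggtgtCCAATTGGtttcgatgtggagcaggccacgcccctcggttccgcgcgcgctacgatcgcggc
Acly: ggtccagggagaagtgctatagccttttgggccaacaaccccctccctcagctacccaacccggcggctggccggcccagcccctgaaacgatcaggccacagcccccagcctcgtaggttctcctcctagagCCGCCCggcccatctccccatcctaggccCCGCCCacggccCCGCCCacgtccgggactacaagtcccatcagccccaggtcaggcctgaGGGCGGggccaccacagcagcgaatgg
Fads2: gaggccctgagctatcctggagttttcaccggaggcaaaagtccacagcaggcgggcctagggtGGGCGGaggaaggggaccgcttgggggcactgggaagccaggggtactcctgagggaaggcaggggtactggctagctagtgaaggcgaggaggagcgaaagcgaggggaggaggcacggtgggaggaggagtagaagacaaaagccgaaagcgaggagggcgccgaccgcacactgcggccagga

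Estimated counts per library summed to 18837907 to 25866142 in KO_ON, 22299837 to 26095622 in WT_ON, 17333746 to 25028817 in KO_CCg and 15401130 to 25375187 in WT_CCg. Levels are given as CPM (counts scaled to a common library total, here with TMM factors over all 20 libraries). Zdhhc9 itself stood at 51.4, 35.4, 47.7, 35.1 and 43.0 CPM in KO_ON, against 135, 145, 115 and 150.4 CPM in WT_ON. In the callosum it ranged from 40.8 to 56.0 with a median of 48.2 CPM in KO_CCg, against 192, 186, 186, 201 and 153 CPM in WT_CCg. Every knockout library was below every wild-type library in both tracts (edgeR log2 fold change -1.70, SE 0.13, adjusted p = 5.44e-04 in optic nerve, and -1.95, SE 0.10, adjusted p = 1.80e-06 in callosum). Transcript was still counted in every knockout library, and which exons the allele lacks is not stated in the sources at hand. All 16 mature oligodendrocyte markers, among them Mbp and Mog, were above 0 in every library of both tracts. The 6 adipocyte markers summed to at most 0.977 CPM in any library, and Adipoq was at 0 in all libraries of KO_CCg and WT_ON.

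Per kilobase of each gene's longest coding transcript, Scd2 was the most abundant of the 10 genes in each of the 4 groups, with a mean of 733 CPM per kb in KO_ON, 823 in WT_ON, 679 in KO_CCg and 889.9 in WT_CCg, and its library values did not overlap those of the next gene. Scd2 is the main stearoyl-CoA desaturase of mouse brain. Scd1 came next at 189.6, 210.2, 107 and 174 CPM per kb in those 4 groups, and Fads1 followed at 126, 127, 81.0 and 88.1. The ranges of Scd1 and Fads1 overlapped in KO_CCg and did not in the other 3 groups. Fasn, Acly, Elovl1 and Fads2 formed a middle tier: in KO_ON, Fads2 at 63.2, Fasn at 60.7, Elovl1 at 60.6 and Acly at 55.9 CPM per kb overlapped each with its neighbour, and so did the same 4 genes in WT_ON between 55.9 and 65.4. The order within this tier differed in the callosum, where Acly (45.6) and Fasn (44.8) stood above Fads2 (36.1) and Elovl1 (33.9) in KO_CCg, and Fads2 (38.1) was the lowest of the 4 in WT_CCg. Elovl7 (28.6, 34.8, 22.1 and 29.7 CPM per kb in the same group order) was eighth of 10 everywhere by its mean. Its library values overlapped those of the genes ranked next to it in both callosum groups. Elovl6 and Acaca had the lowest means, with Elovl6 last in both optic nerve groups (16.8 in KO_ON and 16.0 in WT_ON) and Acaca last in both callosum groups (15.1 in KO_CCg and 18.4 in WT_CCg). Their library ranges overlapped in KO_ON, WT_ON and WT_CCg and did not in KO_CCg.

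**Figure D1:**
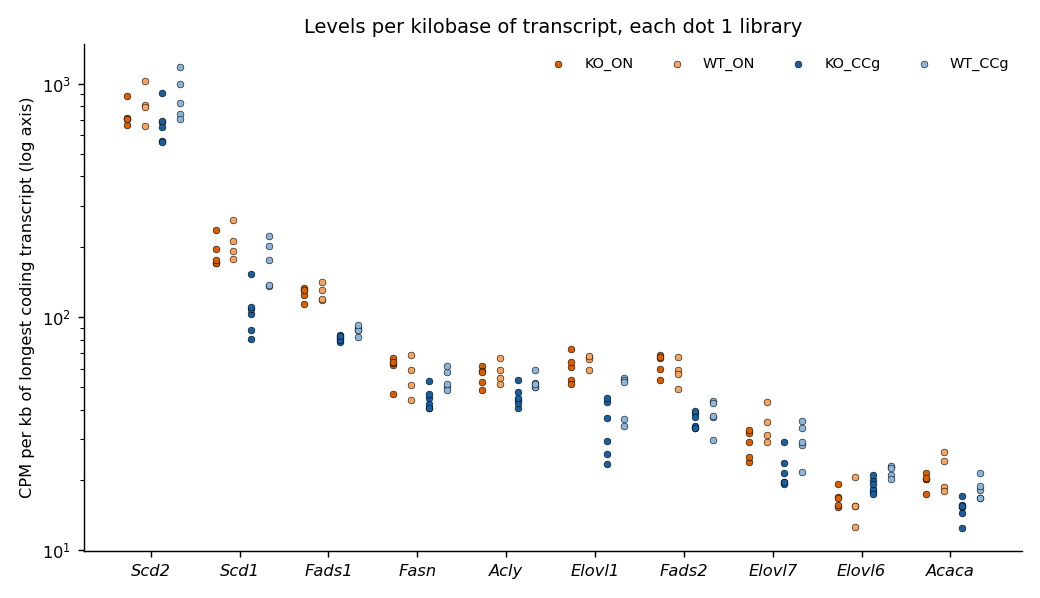
Level of each gene in CPM per kilobase of its longest coding transcript (log axis), each dot 1 library, coloured by group. Scd2 stands above the other 9 genes in each group, and Elovl6 and Acaca have the lowest means.

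On the CPM scale the mean level of all 10 genes in the corpus callosum was lower in knockout than in wild-type libraries. Setting levels relative to oligodendrocyte markers adds 0.61 in log2 to every gene, and 9 of the 10 differences were then positive. No gene passed the test: edgeR's quasi-likelihood test with Benjamini-Hochberg adjustment over 15519 genes called 0 of the 10 at an adjusted p under 0.05 (background 0.0387% of all genes called, 0.0258% called lower). At an unadjusted p under 0.05 stood 8 of the 10, against 11.7% of all genes. The log2 fold change was negative for 10 of 10, against 52.5% of all genes, and its median over the 10 was -0.29, against -0.01 over all genes. Because the 10 were chosen with earlier results of these data known, such contrasts with all genes, here and below, are descriptions only. DESeq2 called 1 of the 10, Scd1, among 1.12% of all genes, whereas limma-voom, run with quality weights per library, called 6 of the 10 among 18.0% of all genes. In none of the 10 did every knockout library lie below every wild-type library (0.696% of all genes did so). In bulk tissue, fewer cells of a type and less RNA per cell cannot be told apart.

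Scd1 had the largest difference of the 10. It ranged from 388 to 738 with a median of 509.6 CPM in KO_CCg, against 1077, 972, 653, 847 and 665 CPM in WT_CCg, means of 517 ± 122 CPM and 843 ± 186 CPM (SD, n = 6 and n = 5). In 5 of 6 knockout libraries Scd1 was below all wild-type libraries, and the exception, KO_CCg_29, was above 2 of them. The log2 fold change was -0.71 (SE 0.18, adjusted p = 0.247, edgeR), and leaving out each library in turn gave -0.84 to -0.61. The adjusted p was 0.0236 with DESeq2 and 0.0137 with limma-voom, where the fold change was -0.93. Scd2 ranged from 3065 to 4987 with a median of 3645 CPM in KO_CCg, against 6428, 5454, 4035, 4522 and 3833 CPM in WT_CCg, again with 5 of 6 knockout libraries below all wild-type ones (log2 fold change -0.40, SE 0.17, adjusted p = 0.406, edgeR).

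Among the enzymes of synthesis, Fasn ranged from 409 to 536 with a median of 439 CPM in KO_CCg, against 586, 504, 490.2, 619.5 and 521 CPM in WT_CCg. Acaca ranged from 119 to 162 with a median of 147 CPM in KO_CCg, against 203, 172, 159, 179 and 159 CPM in WT_CCg. Acly ranged from 180.4 to 238 with a median of 197 CPM in KO_CCg, against 231, 222, 221, 262 and 228 CPM in WT_CCg. In all 3, 5 of 6 knockout libraries lay below all 5 wild-type ones and 1 lay within their range. The exception was KO_CCg_717651 for Fasn and Acly and KO_CCg_29 for Acaca. Their log2 fold changes were -0.28 (SE 0.10) for Fasn, -0.29 (SE 0.10) for Acaca and -0.22 (SE 0.09) for Acly, with adjusted p of 0.381, 0.346 and 0.406 in that order (edgeR).

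Of the 3 elongases, Elovl6 separated the groups best although its difference was small. It ranged from 104 to 124.7 with a median of 111 CPM in KO_CCg, against 136, 124.8, 137, 134 and 121 CPM in WT_CCg, so that 5 of 6 knockout libraries were below all wild-type ones and 4 of 5 wild-type libraries above all knockout ones (log2 fold change -0.22, SE 0.08, adjusted p = 0.366, edgeR). Elovl7 ranged from 77.4 to 116 with a median of 82.4 CPM in KO_CCg, against 144, 134, 114, 117 and 86.9 CPM in WT_CCg, with a log2 change of -0.43 (SE 0.14, adjusted p = 0.342, edgeR). Elovl1 ranged from 42.5 to 81.5 with a median of 60.0 CPM in KO_CCg, against 99.4, 97.3, 62.0, 95.7 and 66.1 CPM in WT_CCg, with a log2 change of -0.46 (SE 0.20, adjusted p = 0.406, edgeR). Elovl1 and Elovl7 overlapped more than Elovl6 did, with 3 and 4 of the 6 knockout libraries below all wild-type ones.

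The 2 desaturases of polyunsaturated fatty acids had the smallest differences. Fads1 ranged from 270.0 to 288 with a median of 280.3 CPM in KO_CCg, against 312, 305, 283, 304 and 321 CPM in WT_CCg, and its coefficient of variation over the knockout libraries, 2.39%, was the lowest of the 10 genes. Its log2 fold change was -0.13 (SE 0.07, adjusted p = 0.478, edgeR). Fads2 ranged from 105 to 125 with a median of 113 CPM in KO_CCg, against 117, 118, 93.8, 137 and 135 CPM in WT_CCg, so that the wild-type libraries spanned the knockout ones (log2 fold change -0.088, SE 0.11, adjusted p = 0.745, edgeR).

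**Figure D2:**
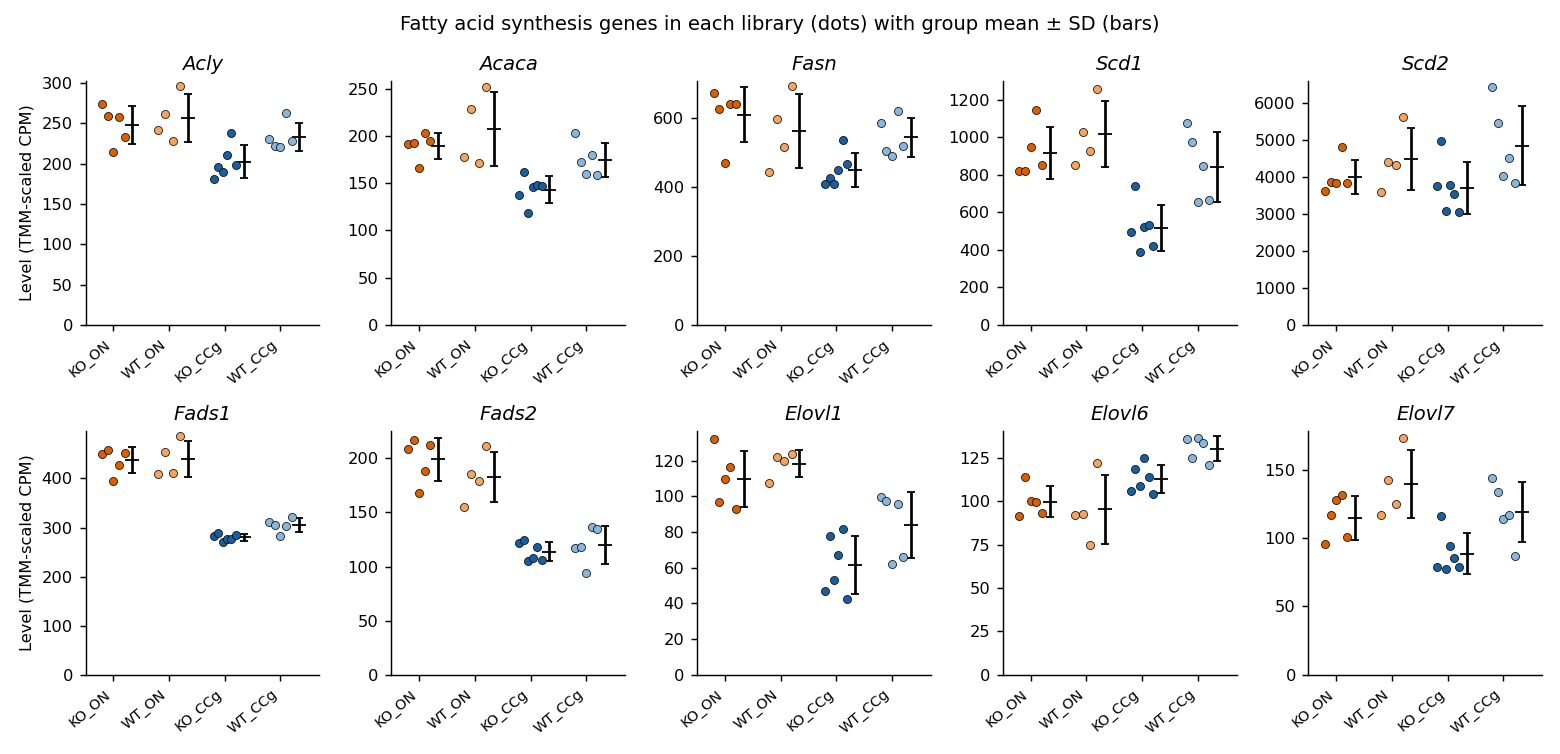
Level of each of the 10 genes (TMM-scaled CPM, axes from 0) in KO_ON, WT_ON, KO_CCg and WT_CCg, each dot 1 library, with the group mean and SD beside it. In the callosum the knockout mean is lower for all 10 genes on this scale and the groups overlap in each. Relative to oligodendrocyte markers every gene shifts by 0.61 in log2 there, and 9 of the 10 differences are positive. Fads1, Fads2 and Elovl1 are higher in all optic nerve libraries than in the callosum libraries of the same genotype.

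Other measures moved with these differences. The 16 mature oligodendrocyte markers summed to 36070 to 70158 CPM in KO_CCg, against 56833 to 95312 CPM in WT_CCg, and 16 of 16 were below 0 in log2 fold change, with a median of -0.59 and 0 called (edgeR). The 16 neuron markers summed to 2028 to 7696 CPM in KO_CCg, against 1775 to 5409 CPM in WT_CCg, and 16 of 16 had a positive one, with a median of 0.65 and 0 called. Newly formed oligodendrocyte markers were negative in 10 of 10 (median -0.26), oligodendrocyte precursor markers in 7 of 8 (-0.21), microglia markers in 12 of 12 (-0.34) and astrocyte markers in 11 of 12 (-0.12), with 0 called in each list. Set relative to the summed mature oligodendrocyte markers in place of the library total, every gene shifted by 0.61 in log2. On that scale 9 of the 10 knockout minus wild-type differences in mean log2 level turned positive. Any gene that fell by less than the shift turns in this way, and the share of all genes that did was not counted. The median over the 10 was 0.33, and Scd1 alone stayed negative at -0.10. With the mean neuron marker level as a covariate, all 10 fold changes stayed negative with a median of -0.20, Scd1 at -0.44 (adjusted p = 0.215, edgeR) and Fads2 at -0.026. What part these cell type measures have in the differences was not tested.

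The callosum libraries carry sample numbers of 2 digits or of 6 or 7 digits, and the labels do not say what sets these apart. Within the 2-digit libraries (2 knockout and 2 wild-type) the log2 fold change of Scd1 was -0.69 and within the longer numbers (4 knockout and 3 wild-type) it was -0.65, with adjusted p of 0.757 and 0.508 (edgeR). The same 2 values were -0.41 and -0.31 for Scd2, -0.34 and -0.24 for Fasn, -0.29 and -0.26 for Acaca, -0.23 and -0.20 for Acly, and -0.18 and -0.23 for Elovl6. They were -0.62 and -0.31 for Elovl1, -0.47 and -0.35 for Elovl7, -0.071 and -0.14 for Fads1, and 0.11 and -0.18 for Fads2. Direction was thus the same in both sets for 9 of the 10 genes, and Fads2 differed in sign. The 2 sets split the same callosum libraries as the comparison above. The share of all genes that kept direction in both was not counted. With the number format as a covariate, Scd1 stood at -0.68 (adjusted p = 0.0777, edgeR).

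**Figure D3:**
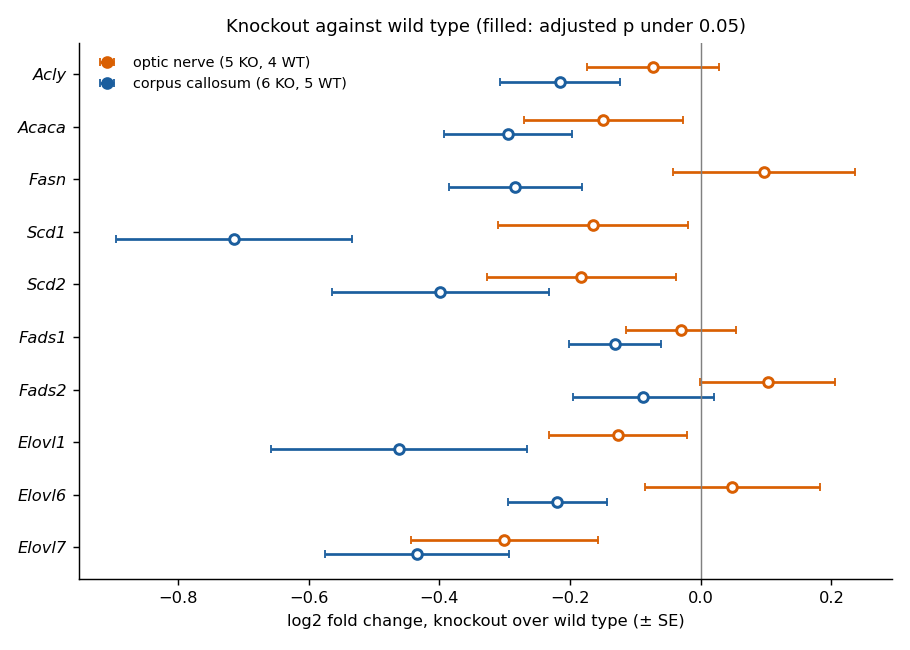
log2 fold change of knockout over wild type (± SE, edgeR) for each gene in optic nerve and in corpus callosum, with open circles for an adjusted p of at least 0.05. All 20 circles are open, the callosum values lie between -0.71 and -0.09, and the optic nerve values lie on both sides of 0.

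The balance between the 2 stearoyl-CoA desaturases is described here without a test. Scd1 made up 11.7%, 12.9%, 11.2%, 12.1%, 13.1% and 12.1% of the summed CPM of Scd1 and Scd2 in the 6 KO_CCg libraries, against 14.3%, 15.1%, 13.9%, 15.8% and 14.8% in the 5 WT_CCg libraries, means of 12.2 ± 0.714% and 14.8 ± 0.708% (SD). These callosum values did not overlap, in the 2-digit libraries or in the others. In optic nerve the share was 18.6 ± 0.919% in KO_ON (17.5% to 19.8%, n = 5), against 18.5 ± 0.694% in WT_ON (17.6% to 19.2%, n = 4), and the groups overlapped. The share was chosen after the values were seen and has no test and no background over other gene pairs. It also rests on how reads were split between the paralogs.

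The 10 genes together took 0.653% to 0.803% of the scaled counts in KO_ON, 0.619% to 0.923% in WT_ON, 0.481% to 0.724% in KO_CCg and 0.614% to 0.933% in WT_CCg, and Scd2 alone made up 55.3% to 68.9% of that sum in every library. Averaged over the 10 genes, each standardized over the 11 callosum libraries (mean 0, SD 1), the library level ranged from -1.24 to 0.11 in KO_CCg, against -0.044 to 1.28 in WT_CCg. The highest knockout library, KO_CCg_29, had the highest oligodendrocyte marker sum and the lowest neuron marker sum (2028 CPM) of its group, and the lowest wild-type library, WT_CCg_685232, had the lowest oligodendrocyte marker sum and the highest neuron marker sum (5409 CPM) of its own. WT_CCg_28 held the highest value of 5 of the 10 genes and WT_CCg_717652 that of 3, while KO_CCg_693451 held the lowest value of 4 and KO_CCg_719856 that of 3.

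**Figure D4:**
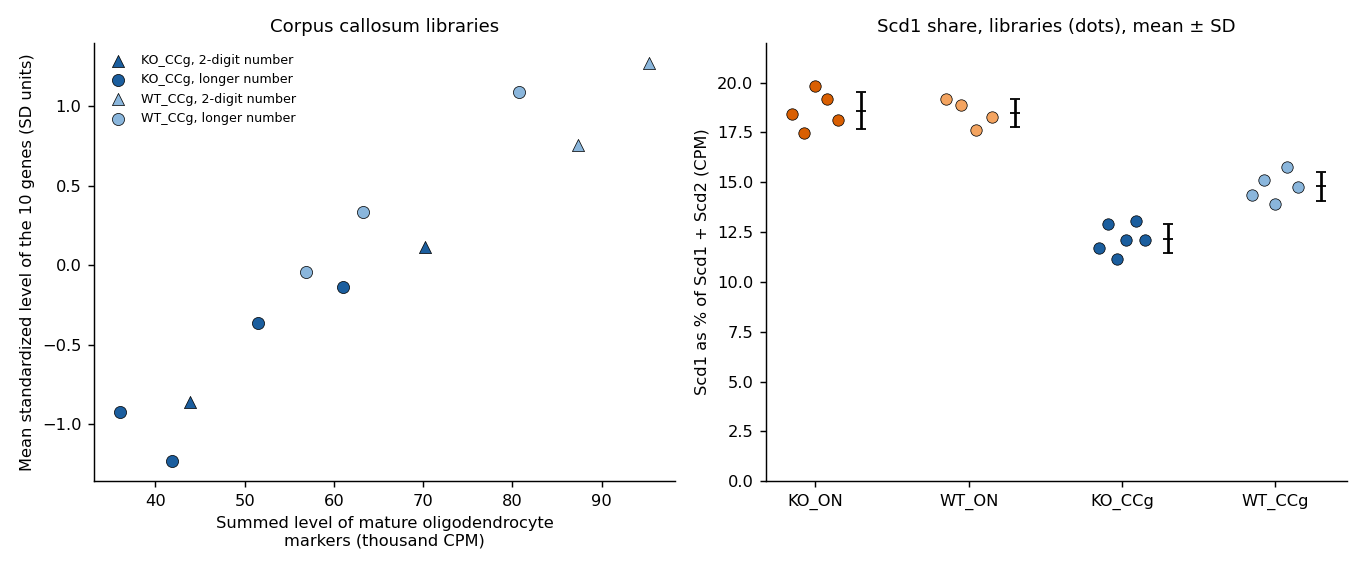
Left, mean standardized level of the 10 genes in each callosum library against its summed mature oligodendrocyte markers (axis in 1000 CPM), with the shape giving the sample number format. Right, Scd1 as a percentage of Scd1 and Scd2 CPM in each library with mean ± SD, where KO_CCg (11.2% to 13.1%) lies below WT_CCg (13.9% to 15.8%) and the optic nerve groups overlap. The share was chosen after the values were seen and was not tested.

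In the optic nerve, 7 of the 10 genes had a negative log2 fold change in knockout libraries, against 47.2% of all genes, and edgeR called 0 of the 10 (background 0.0129% called). None had an unadjusted p under 0.05 (5.48% of all genes did), DESeq2 called 0 and limma-voom 0. No gene of the 10 had all knockout libraries below or above all wild-type ones, as 0.932% and 1.14% of all genes did, and the median over the 10 was -0.10, against 0.01 over all 15556 genes. Both summaries moved with single libraries. Without WT_ON_719857 5 of the 10 were negative, with a median of -0.014, and without KO_ON_719856 7 were, with a median of -0.056. In the other direction, 8 were negative without WT_ON_700858, with a median of -0.14. Elovl7 had the largest difference. It stood at 95.5, 117, 128, 132 and 101 CPM in KO_ON, against 117, 143, 125 and 174 CPM in WT_ON, with overlapping groups (log2 fold change -0.30, SE 0.14, adjusted p = 0.845, edgeR). Scd1 stood at 819, 819, 947, 1145 and 849.7 CPM in KO_ON, against 853, 1026, 927 and 1255 CPM in WT_ON. These also overlapped, with 3 knockout libraries below all wild-type ones and 1 wild-type library above all knockout ones (log2 fold change -0.16, SE 0.15, adjusted p = 0.863, edgeR). Scd2 stood at 3627, 3873, 3835, 4824 and 3845 CPM in KO_ON, against 3590.1, 4413, 4335 and 5621 CPM in WT_ON, with a log2 change of -0.18 (SE 0.14, adjusted p = 0.850, edgeR).

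Fasn had a positive log2 fold change in optic nerve, 0.10 (SE 0.14, adjusted p = 0.917, edgeR). It stood at 672, 627, 471, 640.1 and 641 CPM in KO_ON, against 443, 597, 516 and 693 CPM in WT_ON, so that 4 knockout libraries lay between the upper 2 wild-type values and 1 lay below 3 of the 4 wild-type libraries. The fold changes of the other genes were -0.15 (SE 0.12) for Acaca, -0.13 (SE 0.11) for Elovl1, -0.073 (SE 0.10) for Acly, -0.030 (SE 0.08) for Fads1, 0.048 (SE 0.13) for Elovl6 and 0.10 (SE 0.10) for Fads2. Adjusted p ran from 0.845 to 0.961 over the 10 genes (edgeR). In 8 of the 10 genes the highest value in optic nerve was in 1 library, WT_ON_719857, which also had the highest oligodendrocyte marker sum of all libraries (102273 CPM). Those markers summed to 65965 to 91780 CPM in KO_ON, against 84021 to 102273 CPM in WT_ON, with 12 of 16 negative (median -0.19) and 0 called, and the neuron markers to 369 to 676 CPM in KO_ON, against 396 to 724 CPM in WT_ON, with 13 of 16 positive (median 0.38) and 0 called. Relative to the oligodendrocyte marker sum, a shift of 0.18 in log2 for every gene, 9 of the 10 genes had a positive difference in mean log2 level. The share of all genes that were positive on that scale was not counted. The median over the 10 was 0.094, with Elovl7 at -0.10, and the part of these markers in the differences was not tested.

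The difference between the tracts in the knockout effect was tested over all 20 libraries as the optic nerve effect minus the callosum effect, which uses the same libraries as both comparisons above. This value was positive for 10 of the 10 genes, against 54.0% of all 16440 genes tested, with a median of 0.21, against 0.03 over all genes, but edgeR called 0 of the 10 and 0% of all genes. The median was 0.13 without WT_ON_700858, 0.14 without KO_CCg_719856 and 0.27 without WT_ON_719857. At an unadjusted p under 0.05 stood 2 of the 10, against 6.83% of all genes, and DESeq2 and limma-voom called 0. Those 2 were Scd1 at 0.56 (SE 0.25) and Fasn at 0.39 (SE 0.17), both with an adjusted p of 0.725 (edgeR). The other 8 genes ran from 0.11 (SE 0.10) for Fads1 to 0.34 (SE 0.25) for Elovl1. The 16 mature oligodendrocyte markers had positive values in 16 of 16, with a median of 0.45 and 0 called.

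Between the tracts, the desaturases Fads1 and Fads2 and the elongase Elovl1 were higher in optic nerve than in corpus callosum in both genotypes on the CPM scale. Relative to oligodendrocyte markers Fads1 stood at -0.088 (log2) in knockouts, smaller than its pooled SD between libraries of 0.31. In knockout libraries 8 of the 10 genes were called higher in optic nerve and 0 lower (edgeR, adjusted p under 0.05), where 62.9% of all genes were called, 31.9% higher and 31.0% lower. In wild-type libraries 3 of the 10 were called higher and 1 lower, where 51.3% of all genes were called, 25.3% higher and 26.0% lower, so the wild-type count is close to the background. None of the 10 reached a called 2-fold difference in either genotype, which 14.9% of all genes did upward and 15.2% downward in knockouts, and 13.0% and 13.2% in wild types. Both comparisons come from 1 fit over all 20 libraries, and the difference between the genotypes in the tract effect is the interaction tested above, which called 0 genes. On only the knockout libraries whose numbers occur in both tracts, edgeR called 5 of the 10 with a block on the number. Fasn (adjusted p = 0.193), Acaca (0.0786) and Acly (0.500) were not called there. Without the block, a fit added after seeing the data, 6 were called.

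Fads1 stood at 450.0, 459, 394, 428 and 452 CPM in KO_ON, and ranged from 270.0 to 288 with a median of 280.3 CPM in KO_CCg. The wild-type values were 409.9, 453, 412 and 486 CPM in WT_ON, against 312, 305, 283, 304 and 321 CPM in WT_CCg. Every optic nerve library was above every callosum library of its genotype, with a log2 change of 0.64 (SE 0.06, adjusted p = 4.48e-08) in knockouts and 0.53 (SE 0.07, adjusted p = 3.41e-06) in wild types (edgeR). Fads2, the enzyme of the preceding desaturation step, stood at 209, 217, 168, 189 and 212 CPM in KO_ON, and ranged from 105 to 125 with a median of 113 CPM in KO_CCg. Its wild-type values were 155, 186, 179 and 212 CPM in WT_ON, against 117, 118, 93.8, 137 and 135 CPM in WT_CCg. Again no optic nerve library overlapped a callosum library of its genotype, and the log2 fold change was 0.81 (SE 0.10, adjusted p = 8.62e-07) in knockouts and 0.61 (SE 0.11, adjusted p = 1.29e-04) in wild types (edgeR).

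Elovl1 stood at 132, 97.1, 110.0, 116 and 93.0 CPM in KO_ON, against 42.5 to 81.5 CPM in KO_CCg, and at 108, 122, 120.1 and 124 CPM in WT_ON, against 99.4, 97.3, 62.0, 95.7 and 66.1 CPM in WT_CCg. The groups did not overlap in either genotype, and the log2 fold change was 0.84 (SE 0.17, adjusted p = 1.98e-04) in knockouts and 0.49 (SE 0.18, adjusted p = 0.0303) in wild types (edgeR). The wild-type call of Elovl1 was lost without WT_CCg_685232 (adjusted p = 0.0817), without WT_CCg_7198587 (0.0759) and without WT_ON_717652 (0.0574). Elovl6 ran the other way. It stood at 91.8, 92.4, 74.7 and 122 CPM in WT_ON, against 136, 125, 137, 134 and 121 CPM in WT_CCg, where 1 optic nerve library, WT_ON_719857, lay within the callosum range (log2 fold change -0.45, SE 0.11, adjusted p = 0.00163, edgeR). In knockouts Elovl6 stood at 91.5, 114, 100.2, 99.6 and 93.1 CPM in KO_ON, against 104 to 125 CPM in KO_CCg, and was not called (log2 fold change -0.18, SE 0.10, adjusted p = 0.123, edgeR).

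Scd1 and Acaca were above every KO_CCg library in all 5 KO_ON libraries. Scd1 had a log2 change of 0.83 (SE 0.16, adjusted p = 1.90e-04) in knockouts and of 0.27 (SE 0.18, adjusted p = 0.230) in wild types, and Acaca of 0.40 (SE 0.10, adjusted p = 0.00218) and 0.25 (SE 0.12, adjusted p = 0.0817) (edgeR). In wild types Acaca passed with a filter of 1 CPM (adjusted p = 0.0354), without WT_CCg_28 (0.0365), without WT_ON_700858 (0.0419) and without WT_ON_717652 (0.0285). Counting non-overlap in that direction, 5 of the 10 genes had all KO_ON libraries above all KO_CCg libraries and 3 had all WT_ON above all WT_CCg, against 23.2% and 22.1% of all genes, and 0 had the reverse in either genotype (20.2% and 20.4% of all genes). Fasn stood at 610.1 ± 79.5 CPM in KO_ON and 450.0 ± 48.2 CPM in KO_CCg (SD, n = 5 and n = 6), a log2 change of 0.44 (SE 0.12, adjusted p = 0.00253), and at 562 ± 108 CPM in WT_ON and 544 ± 55.9 CPM in WT_CCg (SD, n = 4 and n = 5), one of 0.047 (SE 0.13, adjusted p = 0.784, edgeR).

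Acly had log2 fold changes of 0.29 (SE 0.09, adjusted p = 0.00708) in knockouts and 0.14 (SE 0.10, adjusted p = 0.248) in wild types (edgeR). Elovl7 had 0.37 (SE 0.14, adjusted p = 0.0253) in knockouts and 0.23 (SE 0.15, adjusted p = 0.224) in wild types (edgeR). The knockout call of Elovl7 was lost without KO_ON_693452 (adjusted p = 0.0636), KO_ON_717651 (0.0703), KO_CCg_27 (0.0664), KO_CCg_693451 (0.0553) or KO_CCg_719856 (0.0616). Scd2, the most abundant of the 10, was called in neither genotype, with a log2 change of 0.11 (SE 0.15, adjusted p = 0.537) in knockouts and -0.11 (SE 0.17, adjusted p = 0.607) in wild types (edgeR).

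**Figure D5:**
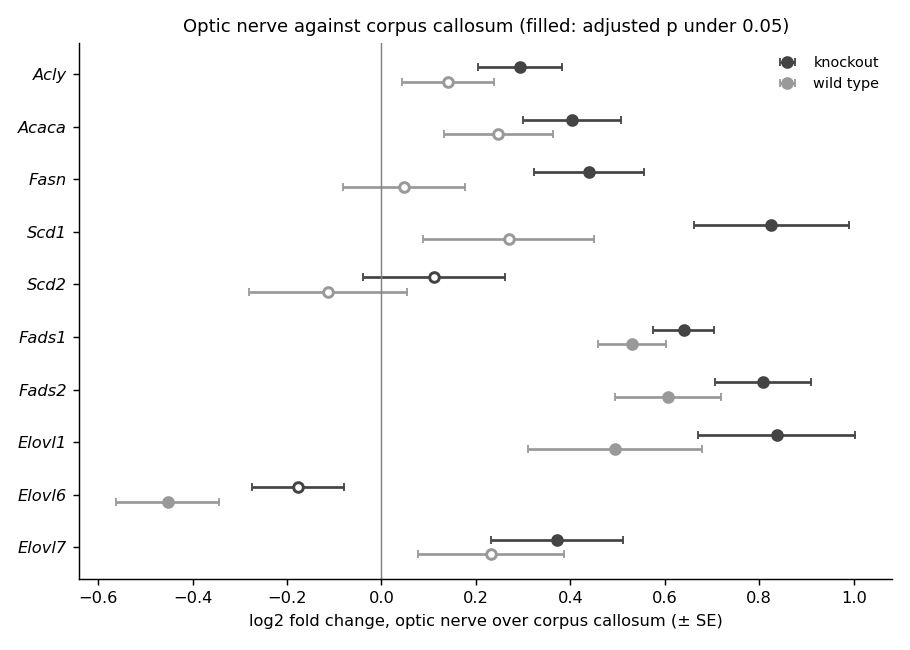
log2 fold change of optic nerve over corpus callosum (± SE, edgeR) for each gene in knockout and wild-type libraries, with filled circles for an adjusted p under 0.05. Elovl1, Fads1 and Fads2 are filled on the right in both genotypes on the CPM scale. Relative to oligodendrocyte markers Fads1 is at -0.088 in knockouts (pooled SD 0.31). Elovl6 lies on the left in both and is filled in wild types, and Scd2 is open in both.

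Marker sums of other cell types also differed between the tracts. The neuron markers summed to 369 to 676 CPM in KO_ON and 396 to 724 CPM in WT_ON, against 2028 to 7696 CPM in KO_CCg and 1775 to 5409 CPM in WT_CCg. The astrocyte markers summed to 10801 to 14622 CPM in KO_ON and 10950 to 13756 CPM in WT_ON, against 3990 to 5124 CPM in KO_CCg and 4354 to 5516 CPM in WT_CCg, and the fibroblast and meningeal markers to 8203 to 17951 CPM in KO_ON and 7443 to 12005 CPM in WT_ON, against 612 to 1345 CPM in KO_CCg and 584 to 969 CPM in WT_CCg. Microglia markers were called higher in optic nerve in 12 of 12 and endothelial markers in 8 of 8 in both genotypes (edgeR). Astrocyte markers were mixed, with 7 of 12 called higher and 2 lower in knockouts, and 6 higher and 3 lower in wild types (edgeR). The highest single astrocyte marker reached 8926 CPM in KO_ON and 8167 CPM in WT_ON. The highest single fibroblast and meningeal marker reached 14716 CPM in KO_ON, 9642 in WT_ON, 1278 in KO_CCg and 890.2 in WT_CCg. All 8 markers of that list were called higher in optic nerve in both genotypes (edgeR). Of all genes, 31.9% were called higher and 31.0% lower in knockouts, and 25.3% and 26.0% in wild types. Of the 16 mature oligodendrocyte markers, 10 were called higher and 1 lower in optic nerve in knockouts (edgeR). In wild types 4 were called higher and 2 lower. Their sums overlapped between the tracts in both genotypes. Relative to those sums, every gene shifted by -0.73 in log2 in knockouts and by -0.30 in wild types. The optic nerve minus callosum difference in mean log2 level then turned negative for 5 of the 8 genes called in knockouts. The other 3 stayed positive, Elovl1 at 0.14 (pooled SD 0.17), Scd1 at 0.12 (0.17) and Fads2 at 0.078 (0.30). In wild types Fads2 (0.32, pooled SD 0.24), Fads1 (0.23, SD 0.23) and Elovl1 (0.22, SD 0.089) stayed positive on that scale and Elovl6 was at -0.77 (SD 0.28). What part cell makeup has in these differences was not tested.

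Of 26 further genes of fatty acid synthesis, desaturation and elongation, 25 passed the filter on low counts, and Elovl3 did not. In the callosum 16 of the 25 were negative (median log2 fold change -0.08), and in optic nerve also 16 (median -0.06), with 0 called in either tract by edgeR. The shares over all genes were 52.5% negative in callosum (median -0.01) and 47.2% in optic nerve (median 0.01). Of 17 genes that regulate this pathway, such as Srebf1 and its escort Scap, all passed the filter, 11 were negative in callosum (median -0.05) and 3 in optic nerve (median 0.05), again with 0 called. Slc25a1, the mitochondrial carrier that exports the citrate which Acly splits, had the smallest p of both lists in callosum. It ranged from 32.8 to 47.1 with a median of 42.2 CPM in KO_CCg, against 50.3 to 59.2 CPM in WT_CCg (log2 fold change -0.44, SE 0.10, adjusted p = 0.209, edgeR). The groups did not overlap, and 0.696% of all genes had every knockout library below every wild-type library. The adjusted p of Slc25a1 was 0.0168 with DESeq2, 0.0180 with limma-voom and 0.0489 in the joint edgeR fit of all 20 libraries. Mid1ip1, whose protein promotes polymerization of acetyl-CoA carboxylase, had -0.50 (SE 0.12, adjusted p = 0.230), and Acss2, which makes acetyl-CoA from acetate, -0.47 (SE 0.12, adjusted p = 0.247) (edgeR). With DESeq2 these 2 had adjusted p of 0.0141 and 0.0497, and with limma-voom 0.0137 and 0.0207. In callosum DESeq2 called 1.12% of all genes and limma-voom 18.0%. In optic nerve the smallest p were those of Me1, a source of NADPH, at -0.27 (SE 0.08), Acss2 at -0.27 (SE 0.08) and the elongase Elovl5 at -0.33 (SE 0.11), and their adjusted p was 0.845 in each case (edgeR).

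Between the tracts, 14 of the 25 further genes were called higher and 3 lower in knockouts, and 13 higher and 3 lower in wild types, and of the 17 regulators 9 were higher and 4 lower in knockouts, and 5 higher and 2 lower in wild types (edgeR). Of all genes, 31.9% were called higher and 31.0% lower in knockouts, and 25.3% and 26.0% in wild types. Among genes whose mean log2 CPM was 3 or more, the largest differences ran past those of any of the 10 enzymes. Hacd4, a dehydratase of the elongation cycle, stood at 32.4 ± 7.86 CPM in KO_ON and 2.20 ± 0.616 CPM in KO_CCg (SD, n = 5 and n = 6), the log2 fold changes being 3.87 (SE 0.24, adjusted p = 3.12e-11) in knockouts and 3.96 (SE 0.26, adjusted p = 1.83e-10) in wild types. Elovl4, an elongase of very-long-chain polyunsaturated fatty acids, was lower in optic nerve than in callosum, with log2 fold changes of -1.88 (SE 0.16, adjusted p = 3.16e-09) in knockouts and -1.61 (SE 0.17, adjusted p = 1.82e-07) in wild types. Nr1h3, the liver X receptor alpha, was higher in optic nerve in knockouts (1.90, SE 0.12, adjusted p = 3.75e-11) and in wild types (1.66, SE 0.13, adjusted p = 1.92e-09). Fads3, a relative of Fads1 and Fads2, was higher there in knockouts (1.53, SE 0.14, adjusted p = 1.39e-08) and in wild types (1.69, SE 0.16, adjusted p = 2.54e-08) (edgeR). The kinase subunit Prkaa2 was lower in optic nerve in knockouts (-0.71, SE 0.17, adjusted p = 0.00131) and had -0.29 in wild types (SE 0.19, adjusted p = 0.221). Thrsp, a relative of Mid1ip1, was lower there in knockouts (-0.53, SE 0.16, adjusted p = 0.00578) and in wild types (-0.89, SE 0.17, adjusted p = 2.51e-04) (edgeR).

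Across the 11 callosum libraries, likeness of profile was measured as the root mean square distance between standardized log2 CPM values, where 0 is an identical profile. Fasn and Acly were the only 2 of the 10 that had each other among their 2 nearest named genes, at a distance of 0.297. Acly lay nearer to Actn4 (0.272). Scd2 lay nearest to Efcab14 (0.0944) and Klhl4 (0.109), and Klhl4 was also near Elovl7 (0.275, after Stxbp3 at 0.217). Scd1 lay nearest to Tmeff1 (0.162) and Ugt8a (0.165), a gene of galactolipid synthesis, and Elovl1 to Pik3ip1 (0.140) and Cers2 (0.148), a ceramide synthase. Elovl6 was nearest to Piezo2 (0.314), Acaca to Errfi1 (0.305), Fads1 to Oat (0.298) and Fads2 to Ruvbl2 (0.390). The median distance of a gene of the 10 to the other 9 was 0.568 for Elovl7, the lowest, and 1.07 for Fads2, the highest, against 1.26 to 1.36 to all genes tested. These distances are descriptions over libraries that share genotype and tissue composition.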

How the data were processed

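The authors deposited 1 table of kallisto estimated counts per gene for all 20 libraries, made from stranded mRNA libraries per the labels' protocols. Per the submitters' processing notes the genome build was mm10. The transcript annotation and the kallisto version are not given in the sources at hand. Of the positive values, 30.1% were whole within 1e-06, and no 2 libraries held identical values.

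The estimated counts were rounded to whole numbers. Genes were kept by filterByExpr (minimum count 10, minimum total 15) and tested with edgeR 4.0.16 (R 4.3.3) after TMM scaling, by the quasi-likelihood test on genotype within each tract, and in 1 fit of 4 groups for the interaction and the tracts. P-values were adjusted by Benjamini-Hochberg over all tested genes, with calls at 0.05. The SE is the absolute log2 fold change divided by the square root of F. The procedure was tested on simulated data. DESeq2 1.42.0, limma 3.58.1 (voom with quality weights), other scalings and filters, covariates, single-format subsets, a block on replicate numbers and the removal of each library in turn were alternatives. Levels are TMM-scaled CPM, divided by the longest coding transcript in GENCODE M21 where genes are compared.

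The 10 genes, the pathway and marker lists and the promoter motifs were chosen with earlier results of these data known. Named beyond the 10 genes and Zdhhc9 were, of the 2 pathway lists, any called in a genotype comparison, the 3 with the smallest p in each, and the 2 largest tract differences upward and downward among genes whose mean log2 CPM was 3 or more. For each of the 10, the 2 nearest profiles were taken, skipping unnamed predicted genes and pseudogenes. Depth bounds the precision of low values, but each of the 10 genes had at least 42.5 CPM in every library.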

Additional observations from a re-analysis of the deposited data

Results flagged for a closer look

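In 3 of 40 groups of 4 to 6 libraries (the 10 genes in 4 groups), 1 library stood apart from the rest by Dixon's criterion at 95%, which chance alone gives in about 1 group in 20. Fasn in KO_ON_693452 was at 471 CPM, the lowest of its group, with the nearest library at 627 CPM. Scd2 in KO_ON_717651 was at 4824 CPM, the highest of its group, with the nearest library at 3873 CPM. Acly in WT_CCg_717652 was at 262 CPM, the highest of its group, with the nearest library at 231 CPM.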

How the results depend on the processing

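No genotype call on the 10 genes was made by edgeR under any other scaling or filter, covariate, subset of libraries or joint fit, while in callosum DESeq2 called 1 of the 10 and limma-voom with quality weights 6. Leaving out each library in turn left 0 of the 10 called in both genotype comparisons and in the interaction, 7 to 8 in the tract comparison of knockouts and 3 to 5 in that of wild types. For the genotype comparisons, no paired analysis was possible because the knockout and wild-type groups share no sample numbers. Between the tracts, 3 knockout numbers and 1 wild-type number occur in both. Deviations of same-numbered libraries from their group means correlated at 0.018, -0.15 and 0.13 for the knockouts and -0.053 for the wild type, so same-numbered libraries did not all deviate together, and 1 of the 4 callosum libraries correlated best with its own number. With the replicate block on the 3 knockout pairs alone, 5 of the 10 were called, against 6 on the same libraries without it, a fit added after seeing the data, and 8 on all libraries. Blocked, Fasn was at 0.26 (adjusted p = 0.193), Acaca at 0.35 (0.0786) and Acly at 0.13 (0.500). Unblocked on those libraries Fasn was at 0.28 (0.208) and Acly at 0.13 (0.473) (edgeR). With limma-voom and the block on all libraries 8 and 4 were called. Without single libraries the optic nerve genotype difference changed sign for Fasn (-0.0017 to 0.22), Acly (-0.13 to 0.0088), Elovl6 (-0.055 to 0.20, also -0.0048 without KO_ON_48118A4) and Fads1 (-0.065 to 0.026), none of them called. In the tract comparison of wild types the same held for Fasn (-0.035 to 0.15) and Scd2 (-0.20 to 0.0090). Fads2 in callosum was at 0.11 in the 2-digit libraries. Relative to the mature oligodendrocyte marker sum, 5 called tract differences in knockouts turned negative: Fasn -0.29 (pooled SD 0.34), Acaca -0.32 (0.27), Acly -0.43 (0.29), Elovl7 -0.35 (0.18) and Fads1 -0.088 (0.31). The mean of that sum was higher in optic nerve, at 82342 CPM in KO_ON against 50747 CPM in KO_CCg, and the library values overlapped. Plain CPM kept the sign of all called values.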
